A study of Mus musculus with 2 samples.

Results

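Chemokines that draw T cells into tissue, and the receptors that read them, were followed across the cell types of mouse melanoma tumours. The set held 8 genes, found in the count matrix by their exact symbols among 31053 genes: the ligands Cxcl9, Cxcl10, Cxcl16, Ccl3, Ccl4 and Ccl5 and the receptors Cxcr3 and Cxcr6. Viable CD45+ cells had been sorted from B16F10 tumours, grown from a pigmented mouse melanoma line, 2 weeks after injection. One sample came from mice with Rel deleted in myeloid cells (Rel KO, genotype LysM-cre x RelloxP/loxP), the other from WT mice (genotype LysM-cre x Rel+/+), and each was a pool of 5 tumours. Both groups carried LysM-cre, which is active in the myeloid lineage, so recombination of Rel was not directed at T or NK cells. Rel encodes c-Rel, an NF-kB subunit. The droplet 3′ libraries shared 1 matrix in which barcodes ended in 1 or 2, and nothing in the sources used here tied an ending to a genotype. They are therefore called library 1 and library 2, values are given for each, and no effect of genotype is read from them. With 1 library per genotype there was no replicate and no test, and every interval covers counting error only.

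Cxcl9 and Cxcl10 are induced by interferon gamma and are the ligands of Cxcr3, a receptor of activated T cells, NK cells and plasmacytoid dendritic cells. Cxcl16 is made as a membrane protein that ADAM proteases can shed, and its receptor Cxcr6 marks effector and resident T cells. Ccl3, Ccl4 and Ccl5 are inflammatory chemokines that attract T cells, NK cells and monocytes, and activated cytotoxic lymphocytes also secrete them.

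Library 1 held 7688 barcodes with 49129318 UMIs (unique molecular identifiers, each a captured mRNA molecule), and library 2 held 10564 barcodes with 73507228 UMIs. After filters 5198 and 7999 barcodes were kept. Each kept barcode was assigned to a class by its own marker genes, none of them a chemokine or receptor of the set (a marker gate). The macrophage gate held 478 barcodes in library 1 and 674 in library 2, the monocyte gate 407 and 401, the CD8 T gate 311 and 204 and the NK gate 255 and 72. Conventional dendritic barcodes numbered only 25 and 26, migratory dendritic 19 and 5, and regulatory T 34 and 6. Although the sort was for CD45, the melanoma gate held 2039 and 5016 barcodes, in which the CD45 gene Ptprc stood at 2.41 and 2.41 CPM (UMIs of a gene per 1000000 UMIs summed over a gate). Its melanocyte markers also reached the immune gates, at 1.34 to 10.8% of their melanoma level in library 1 and 4.55 to 10.5% in library 2, so a low level of any gene in a gate may include free RNA. The libraries shared 3609 barcode sequences, and barcodes with over 10 times fewer UMIs than their namesake in the other library were left out. Rel itself had 131 CPM in library 1 and 24.7 CPM in library 2 in macrophages, 336 and 109.9 in monocytes, and 146 and 166 in CD8 T cells. Myeloid barcodes resolved as neither macrophage nor monocyte had 327 and 98.9 CPM, and neutrophils 167 and 90.3. NK cells had 88.8 and 29.5 CPM and B cells 572 and 205, each on 2 UMIs in library 2. Rel was thus lower in library 2 in the macrophage, monocyte and unresolved gates, with intervals apart, but not in CD8 T cells. A 3′ read can come from transcript outside a deleted stretch, and no label names the libraries, so these values were not used to name them.

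**Figure D1:**
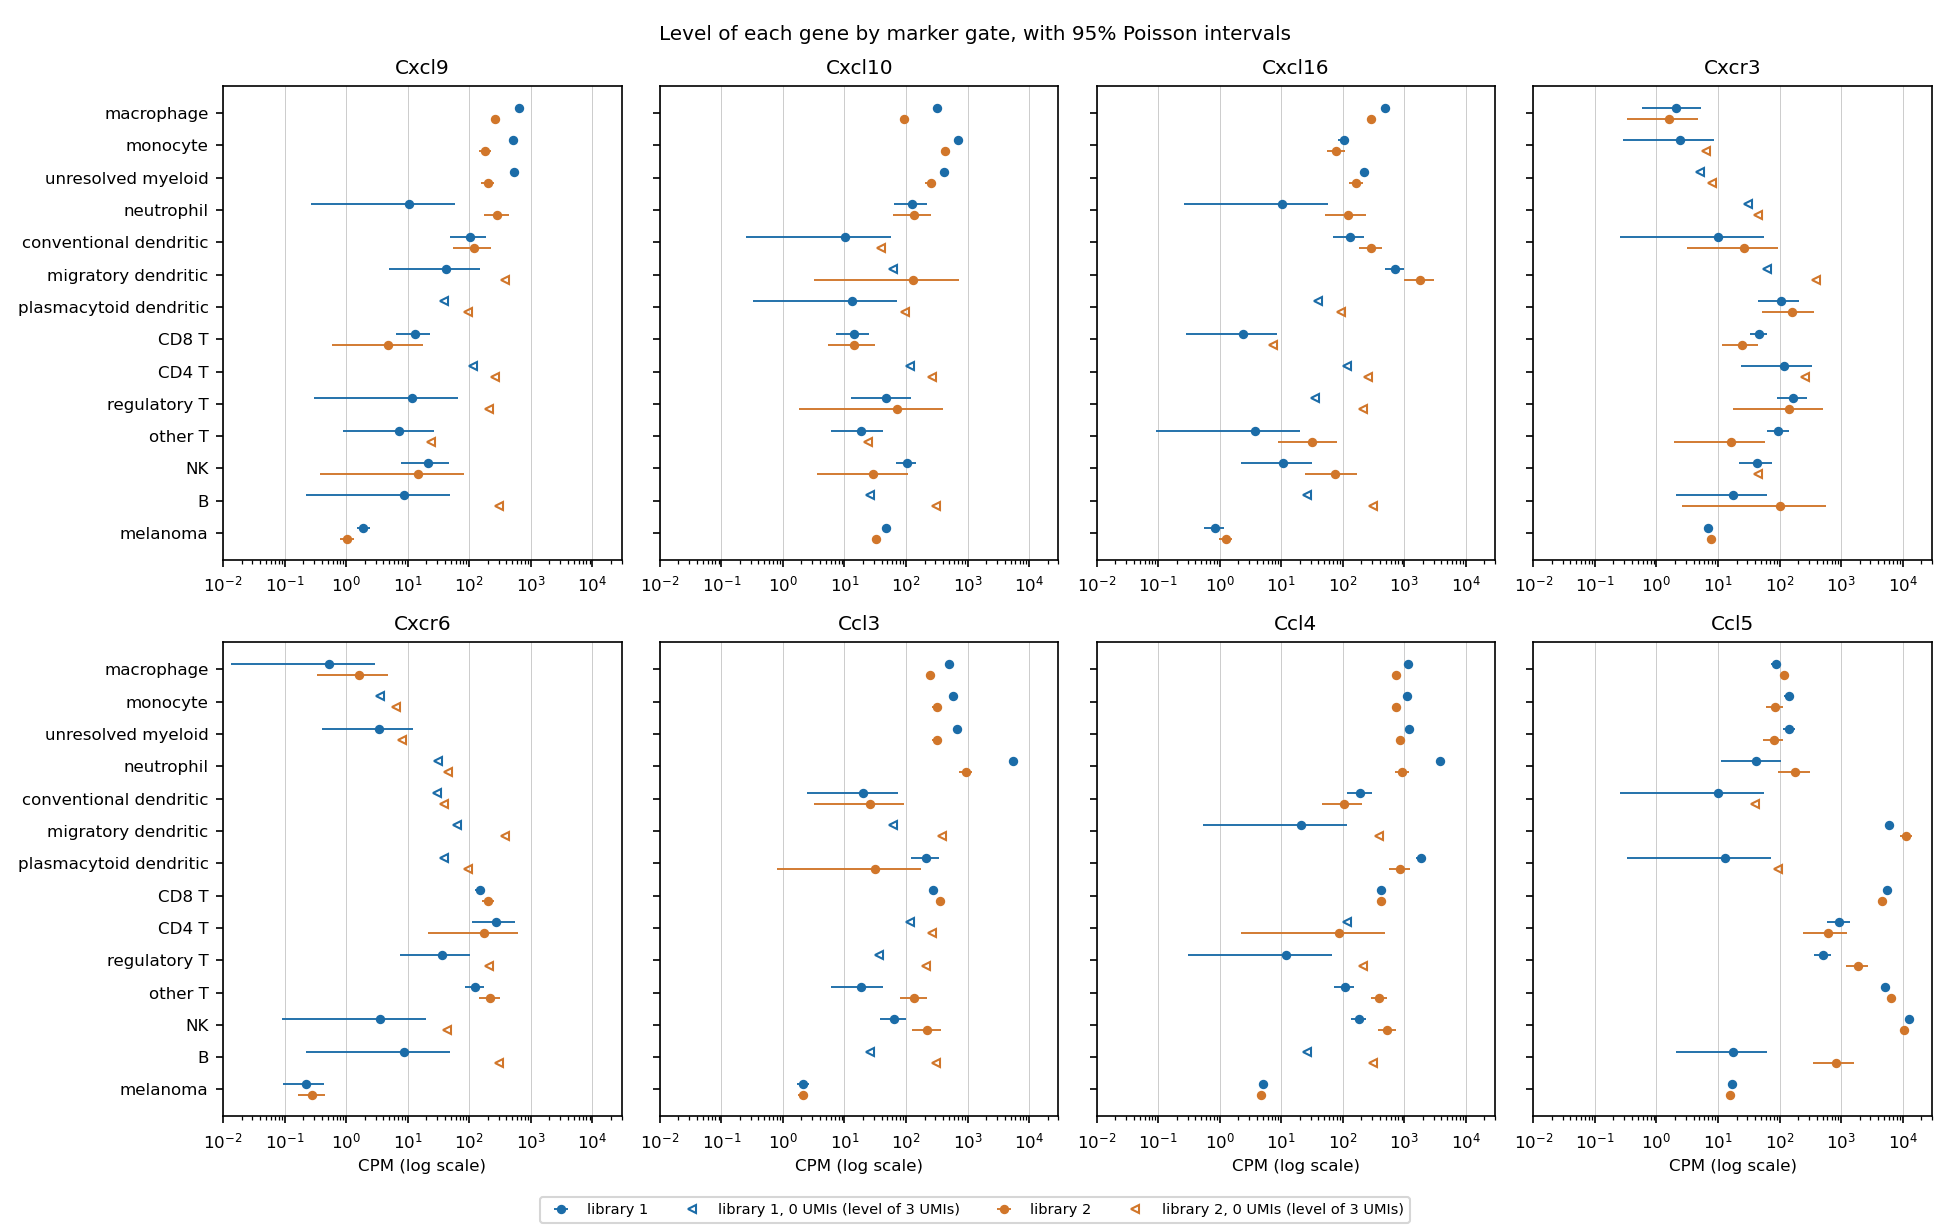
Level of the 8 genes (CPM, log axis) in 14 marker gates of library 1 (blue) and library 2 (orange), with 95% Poisson intervals; open triangles mark gates with 0 UMIs, drawn at the level 3 UMIs would give. Cxcl9, Ccl3 and Ccl4 stood high in the macrophage, monocyte and unresolved myeloid gates. Ccl3 was highest in neutrophils in both libraries and Ccl4 in library 1. In library 2 the neutrophil interval of Ccl4 overlapped that of the unresolved myeloid gate. Cxcl16 stood high in macrophages and migratory dendritic barcodes, and Cxcr6 in the CD8 T, CD4 T and other T gates. Ccl5 stood high in the NK, migratory dendritic, CD8 T and other T gates.

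The interferon-induced pair Cxcl9 and Cxcl10 lies on chromosome 5 (GRCm38, reverse strand), Cxcl9 at 92321347-92328079 with 4 exons and Cxcl10 at 92346638-92348889 with 4 exons. Cxcl10 lies inside the span of Art3, which is annotated on the opposite strand. Whether promoter motifs relate to the gates that held these ligands was not tested. The promoters of Cxcl9 and Cxcl10 are shown. Each is 300 bases around the transcription start from RefSeq (GRCm38.p6), 5′ to 3′ on the gene's strand, chr5:92328030-92328329 for Cxcl9 and chr5:92348840-92349139 for Cxcl10, with motif matches in capitals.
Cxcl9: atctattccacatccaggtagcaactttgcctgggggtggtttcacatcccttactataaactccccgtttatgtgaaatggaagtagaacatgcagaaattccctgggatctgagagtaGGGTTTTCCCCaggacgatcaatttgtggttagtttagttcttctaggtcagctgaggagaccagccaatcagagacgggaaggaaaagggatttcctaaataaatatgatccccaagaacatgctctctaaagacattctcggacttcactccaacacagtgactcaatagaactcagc
Cxcl10: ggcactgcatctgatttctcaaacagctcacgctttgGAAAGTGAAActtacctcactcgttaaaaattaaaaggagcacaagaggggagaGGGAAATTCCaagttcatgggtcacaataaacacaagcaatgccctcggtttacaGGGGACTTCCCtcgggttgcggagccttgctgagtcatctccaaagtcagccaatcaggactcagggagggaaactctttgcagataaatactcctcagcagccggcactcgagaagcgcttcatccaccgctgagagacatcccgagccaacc
Both strands were searched for 3 motifs. The interferon response core, GAAA, any 2 bases and GAAA, occurred once in the Cxcl10 promoter (bases 38 to 47 of those shown) and not in that of Cxcl9, and 3.44% of 32851 RefSeq promoters of this length hold it. The loose kB pattern, GGG, any 5 bases and CC, a form of the sequence NF-kB subunits bind, matched at 3 places for Cxcl10 and 2 for Cxcl9, with 1 pair of overlapping matches in each, and 50.8% of promoters hold it. The consensus pattern of the interferon gamma element (GAS), TTC, any 3 bases and GAA, had 0 matches in both promoters, and 8.3% of promoters hold it. Elements that depart from these exact patterns, or lie outside the 300 bases, are missed, so 0 matches does not mean that a promoter lacks such an element. Of the other members, Cxcr3, Cxcr6 and Ccl3 had an entry in the promoter table, with 1 kB match in Cxcr3 and no match to any of the 3 patterns in Cxcr6 and Ccl3.

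Cxcl9 was a myeloid transcript. Macrophages had 636 CPM (601 to 673) in library 1 and 257 CPM (235 to 282) in library 2. Monocytes had 517 CPM (469.7 to 568) and 179.6 CPM (143 to 222), and myeloid barcodes resolved as neither had 528 and 200.5 CPM. Macrophages came first in library 1, clear of the next gate by its interval, whereas in library 2 the intervals of neighbouring myeloid gates overlapped. The macrophage gate held 51.8% of all Cxcl9 UMIs of library 1 and 54.2% of those of library 2. Conventional dendritic cells had 101 CPM (10 UMIs) and 118 CPM (9 UMIs), CD8 T cells 12.9 CPM (all 11 UMIs in 1 barcode) and 4.82 CPM, and melanoma cells 1.91 and 1.03 CPM. The neutrophil gate of library 2 ranked highest with 286 CPM, but on 19 UMIs of which 11 lay in 1 barcode, and library 1 neutrophils had 1 UMI. The neutrophil gate also held macrophage markers, at 146 CPM summed over the list in library 1 and 2061 CPM in library 2. The 3 library 2 neutrophil barcodes with 3 or more macrophage markers held 0 of the 19 Cxcl9 UMIs.

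A minority of macrophages had a Cxcl9 UMI. It was seen in 30.3% of macrophages in library 1 and 18.4% in library 2, at median depths of 3408 and 2436.5 UMIs. In CD8 T cells, which serve as the background here, the shares were 0.322% and 0.98% at 1811 and 1616 UMIs. After thinning every barcode to 1000 UMIs, the macrophage shares were 22.2% and 12.3%.

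Cxcl10, which signals through the same receptor, was distributed differently. Monocytes held the highest level of any gate in both libraries, 709.7 CPM (654 to 769) in library 1 and 437 CPM (379.9 to 501) in library 2. Unresolved myeloid barcodes followed with 422 and 254 CPM. Macrophages had 314 CPM (289.5 to 340.4) and 92.8 CPM (79.5 to 108). The melanoma gate had 47.5 CPM (45.3 to 49.8) and 32.1 CPM (30.7 to 33.6), and being so large it held 45.8% and 73.4% of all Cxcl10 UMIs. CD8 T cells had 14.1 and 14.5 CPM, below the melanoma interval in each library. Macrophage markers summed to 1625 and 1477 CPM in the melanoma gate, against 26177 and 22794 CPM in macrophages. Markers shared by myeloid cells summed to only 41.7 and 53.3 CPM there, against 10699 and 8427.5 CPM in macrophages. Monocyte markers summed to 44.2 and 46.1 CPM there, against 10264 and 11898 CPM in monocytes. The part of myeloid RNA in the Cxcl10 of the melanoma gate was not tested. A Cxcl10 UMI was found in 25.1% and 10.7% of monocytes and 26.8% and 9.5% of macrophages, or 20.3% and 10.3% against 14.3% and 5.12% after thinning to 1000 UMIs. In CD8 T cells the unthinned shares were 3.54% and 1.96%.

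Within the melanoma gate Cxcl10 went with the interferon-induced genes Iigp1 and Igtp. This split was not among the planned comparisons, and no share over all genes was computed for it. The 47 melanoma barcodes of library 1 with at least 2 UMIs of Iigp1 and Igtp, which encode interferon-induced GTPases, had 239 CPM of Cxcl10, against 42.3 CPM in the 1931 with none, a ratio of 5.65 times (95% interval 4.93 to 6.46). In library 2 the values were 162 CPM in 63 barcodes and 30.2 CPM in 4826, a ratio of 5.36 times (95% interval 4.46 to 6.39). Barcodes with these UMIs were also deeper, with medians of 21084 against 17329 UMIs in library 1 and 12353 against 11665 in library 2. In library 1, the barcodes with none held most of the gate's Cxcl10, 1428 of 1715 UMIs.

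Cxcl16, the ligand of Cxcr6, was the most macrophage-centred of the ligands by its share of UMIs. Macrophages had 486 CPM (455 to 518) in library 1 and 283 CPM (259.6 to 308) in library 2, and held 67% and 59.9% of its UMIs. A UMI was present in 69% and 48.2% of macrophages, against 0.322% and 0% of CD8 T cells. Monocytes had 103 and 78.2 CPM. The highest level was in the few migratory dendritic barcodes, 708 CPM (490 to 989) in library 1 and 1796 CPM (982 to 3014) in library 2, from 34 and 14 UMIs. Cxcl16 lies at chromosome 11, 70453983-70459984 (reverse strand, 5 exons), and its start overlaps Zmynd15 on the opposite strand. Of its shedding proteases, Adam17 had 96.5 and 77.2 CPM in macrophages and Adam10 58.7 and 49.9 CPM.

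**Figure D2:**
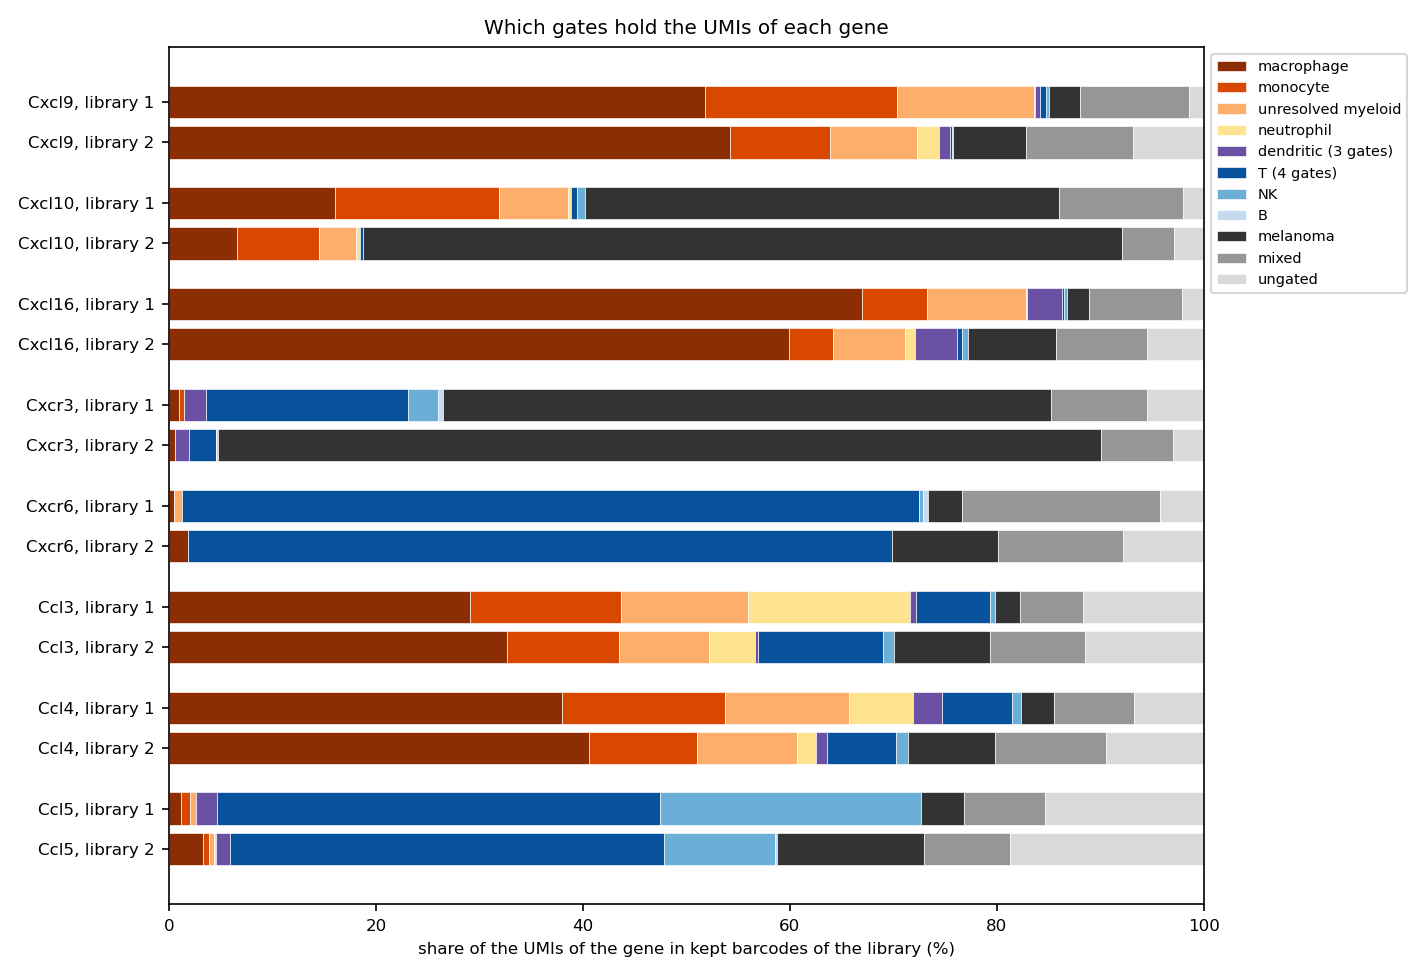
Share of the UMIs of each gene that fell in each group of gates, for library 1 and library 2, in percent of its UMIs in all kept barcodes. Macrophages held most Cxcl9 and Cxcl16 UMIs, the T gates most Cxcr6 UMIs, and the melanoma gate most Cxcr3 UMIs in both libraries. Shares also follow how many barcodes a gate has and how many UMIs those barcodes hold.

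Cxcr3, the receptor of Cxcl9 and Cxcl10, was sparse, with 420 UMIs in library 1 and 535 in library 2. It lies on chromosome X at 101731535-101734269 (reverse strand, 2 exons). Regulatory T cells had 167 CPM (91.3 to 280.2) and 142 CPM (17.2 to 514). Plasmacytoid dendritic cells had 104 CPM (45 to 205) and 158 CPM (51.4 to 369). The intervals of these gates overlapped in each library, so their order is not resolved. CD8 T cells had 45.8 CPM (32.6 to 62.6) and 24.1 CPM (11.6 to 44.3). Effector CD8 T cells, those with more effector than naive-memory markers, had 16.1 and 20.4 CPM, and naive-memory CD8 T cells had 132 CPM (15 UMIs) and 47.3 CPM (1 UMI). NK cells had 42.6 CPM in library 1, and 0 UMIs in library 2, where 3 UMIs would have been 44.3 CPM.

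Most Cxcr3 UMIs were not in lymphocytes. The melanoma gate held 247 UMIs in library 1 and 457 in library 2, which is 58.8% and 85.4% of the total. Its level was 6.84 CPM (6.02 to 7.75) and 7.59 CPM (6.91 to 8.32). Of the UMIs of all genes in kept barcodes it held 36090875 of 46655925 in library 1 and 60181049 of 70263976 in library 2. Its share of Cxcr3 was therefore no higher than its share of all UMIs. Macrophages had 2.1 and 1.61 CPM. The melanoma level was 3.26 times (1.26 to 12.1) the macrophage level in library 1 and 4.72 times (1.6 to 23) in library 2. The UMIs were spread over 214 of 2039 melanoma barcodes in library 1 and 416 of 5016 in library 2, with at most 3 in a barcode. In the same barcodes Cxcr6 had 8 and 17 UMIs, whereas in CD8 T cells Cxcr6 had 127 and 84 UMIs and Cxcr3 39 and 10. The sum of the T cell markers in the melanoma gate was 6.15 CPM in library 1 and 6.02 CPM in library 2, against 4882 and 5090.1 CPM in CD8 T cells. The source of the melanoma Cxcr3 UMIs was not tested. After thinning to 1000 UMIs, 0.546% and 0.542% of melanoma barcodes kept a Cxcr3 UMI, against 6.3% and 0.633% of CD8 T barcodes.

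Cxcr6, the receptor of Cxcl16, was by contrast a T cell transcript. It lies at chromosome 9, 123806475-123811760 (forward strand, 2 exons), within Fyco1 on the opposite strand. CD8 T cells had 149 CPM (124 to 177) in library 1 and 203 CPM (162 to 251) in library 2, and held 52.9% and 50.6% of its UMIs. T cells with neither a clear CD8, CD4 nor Foxp3 identity had 125 and 216 CPM. The 19 and 7 CD4 T barcodes had 271 and 174 CPM, on 7 and 2 UMIs, with intervals that overlap those of CD8 T cells. Regulatory T cells had 35.8 CPM (7.38 to 105) in library 1 and 0 UMIs in library 2. A UMI was found in 29.3% and 30.4% of CD8 T cells, against 0.209% and 0.445% of the deeper macrophages.

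Few barcodes held both receptors. Among CD8 T cells of library 1 thinned to 1000 UMIs, 2 of 16 with a Cxcr3 UMI also had Cxcr6, against 38 of 238 without Cxcr3. The shares were 12.5% and 16%. In library 2 only 1 thinned CD8 T barcode had a Cxcr3 UMI.

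Ccl3 and Ccl4, neighbours on chromosome 11 (Ccl3 at 83647844-83649355, reverse strand, 3 exons, and Ccl4 at 83662584-83664683, forward strand, 3 exons), were high across the myeloid gates. Macrophages had 502 and 241 CPM of Ccl3, and monocytes 575 and 315 CPM. Ccl4 stood at 1153 and 723 CPM in macrophages and 1088 and 738 CPM in monocytes. Neutrophils were the highest gate for Ccl3 in both libraries, with 5381 CPM (4927 to 5866) in library 1 and 933 CPM (715 to 1196) in library 2. For Ccl4 the neutrophil gate had 3737 CPM in library 1 and 933 CPM in library 2, where 29 of 62 UMIs were in 1 barcode. Without that barcode it had 502 CPM in library 2, under the macrophage and monocyte levels. The gate held 131 barcodes in library 1 and 70 in library 2, at median depths of 636 and 631 UMIs. Plasmacytoid dendritic cells, which specialise in type I interferon, had 1850.1 CPM (1558 to 2181) and 855 CPM (563 to 1243) of Ccl4, but 208 and 31.7 CPM of Ccl3. A Ccl4 UMI was present in 59.2% and 38.7% of them, against 8.24% and 4.84% of melanoma barcodes, at median depths of 1547 and 973 against 17718 and 11711 UMIs. CD8 T cells had 271 and 362 CPM of Ccl3 and 423 and 415 CPM of Ccl4.

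The pair was seen together in single barcodes. In macrophages thinned to 1000 UMIs, 70.6% of those with Ccl3 had Ccl4 in library 1 (84 of 119), against 31.7% of those without. The shares in library 2 were 52.2% and 24.1%. In monocytes they were 61.6% against 25% in library 1 and 45.7% against 18.9% in library 2. In CD8 T cells they were 13 of 22 barcodes with Ccl3 against 18 of 232 without it in library 1 and 5 of 12 against 14 of 146 in library 2. The Cxcr3 ligands were also seen together. Cxcl10 was found in 24.5% of thinned macrophages with Cxcl9 and 11.5% of those without in library 1, and in 9.09% and 4.56% in library 2, where 7 of 77 barcodes with Cxcl9 had both. In monocytes the shares were 30.4% and 18.9% in library 1 and 27.8% (5 of 18) and 8.97% in library 2.

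Ccl5, at chromosome 11, 83525778-83530518 (reverse strand, 3 exons), was highest in NK cells and the few migratory dendritic barcodes, followed by T cells. NK cells had 12886 CPM (12469.7 to 13312) in library 1 and 10569 CPM (9809 to 11372) in library 2, with a UMI in 96.5% and 93.1% of barcodes. CD8 T cells had 5501 CPM (5345 to 5661) and 4685 CPM (4479 to 4898). Migratory dendritic barcodes reached 6056 CPM (5379.9 to 6793) and 11419 CPM (9170.4 to 14052), while conventional dendritic barcodes had 1 UMI in library 1 and 0 in library 2. Migratory dendritic barcodes held 291 and 89 Ccl5 UMIs, and their T cell markers summed to 20.8 CPM in library 1 and 0 CPM in library 2. Macrophages had 86.6 and 116 CPM and monocytes 141 and 84.5 CPM. Melanoma cells had 16.6 and 15.8 CPM, with a UMI in 15.5% and 11% of barcodes.

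Gates were then compared within each library, and a gene was called when its level differed at least 2 times in the same direction in library 1 and library 2. Genes needed 20 UMIs over the compared gates in each library. Between macrophages and monocytes the ligands split: Cxcl16 was higher in macrophages and Cxcl10 higher in monocytes, while Cxcl9, Ccl3, Ccl4 and Ccl5 were not called. Thus 2 of the 6 members measured were called, against 16.7% of all 7430 genes measured. Cxcl16 had 486 CPM in macrophages and 103 CPM in monocytes of library 1, a ratio of 4.73 (95% interval 3.79 to 5.97), and 283 and 78.2 CPM in library 2, a ratio of 3.62 (2.59 to 5.2). Cxcl10 had a macrophage over monocyte ratio of 0.443 (0.395 to 0.497) in library 1 and 0.212 (0.172 to 0.261) in library 2. For Ccl4 the ratios were 1.06 (0.981 to 1.15) and 0.98 (0.871 to 1.11), so a gap of 2 times lies outside both intervals. The median log2 ratio over the members measured was -0.05, against 0.17 over all genes. The Cxcl10 call depends on the classes: with classes from clusters, where the monocyte class had 267 barcodes, its log2 ratio was -0.19 in library 1 and 0.23 in library 2. With macrophages and monocytes set apart by 1 marker in place of 2, it was -0.94 in library 1, just short of the limit.

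Other chemokine genes also differed between these gates. Of 42 further chemokine and receptor genes found, 17 were measured between macrophages and monocytes, and 4 were higher in macrophages and 3 in monocytes. The monocyte-attracting Ccl7, Ccl8 and Ccl12 and platelet factor Pf4 were the macrophage genes, with Pf4 at 2038 CPM in macrophages and 112 CPM in monocytes of library 1, and 2856 and 106 CPM in library 2. The neutrophil attractant Cxcl3, the eosinophil attractant Ccl24 and Ccr2 were higher in monocytes, Ccr2 being itself a monocyte marker of the gate. Over the 17 genes the median log2 ratio was -0.11.

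Conventional dendritic cells, which present antigen to T cells, had lower levels of 5 of the 6 members measured than macrophages. The 5 were Cxcl9, Cxcl10, Ccl3, Ccl4 and Ccl5, whereas 16.4% of all 6887 genes measured were lower by this rule and 20.8% were called in either direction. Ccl4 had 192 CPM in conventional dendritic cells and 1153 CPM in macrophages of library 1, a ratio of 0.166 (0.1 to 0.26), and 105 and 723 CPM in library 2, a ratio of 0.145 (0.0623 to 0.286). Cxcl9 had ratios of 0.159 (0.0759 to 0.293) and 0.457 (0.208 to 0.874), and thinned to 500 UMIs per barcode its log2 ratio in library 2 was -0.23, short of the limit, as it was with melanoma RNA under 0.1% (-0.71). The same thinning left Ccl5 at -0.39 in library 1. Ccl3 had 2 dendritic UMIs in each library, with ratios of 0.0402 (0.00487 to 0.146) and 0.108 (0.0131 to 0.393). In library 2 the dendritic gate had 0 UMIs of Cxcl10 and Ccl5. With that 0 set to 3 UMIs they were 2.37-fold and 2.97-fold lower, a figure without counting error. The dendritic interval of Cxcl10 reached 48.2 CPM, against 92.8 CPM (79.5 to 108) in macrophages, so a gap under 2 times is not excluded for Cxcl10. Cxcl16 was lower only in library 1, at a ratio of 0.27 (0.143 to 0.464), with 1.01 (0.63 to 1.55) in library 2. The median log2 ratio of the members was -2.98, or -2.51 with genes at 0 set to 3 UMIs, against -0.12 over all genes, and that of 17 other chemokine genes was -3.25. Of those 17, 13 were lower in conventional dendritic cells, and Ccr2 and the dendritic marker Xcr1 were higher. These gates held 25 and 26 barcodes, and keeping barcodes with markers of a second lineage turned the Ccl5 log2 ratio of library 1 to 1.86.

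**Figure D3:**
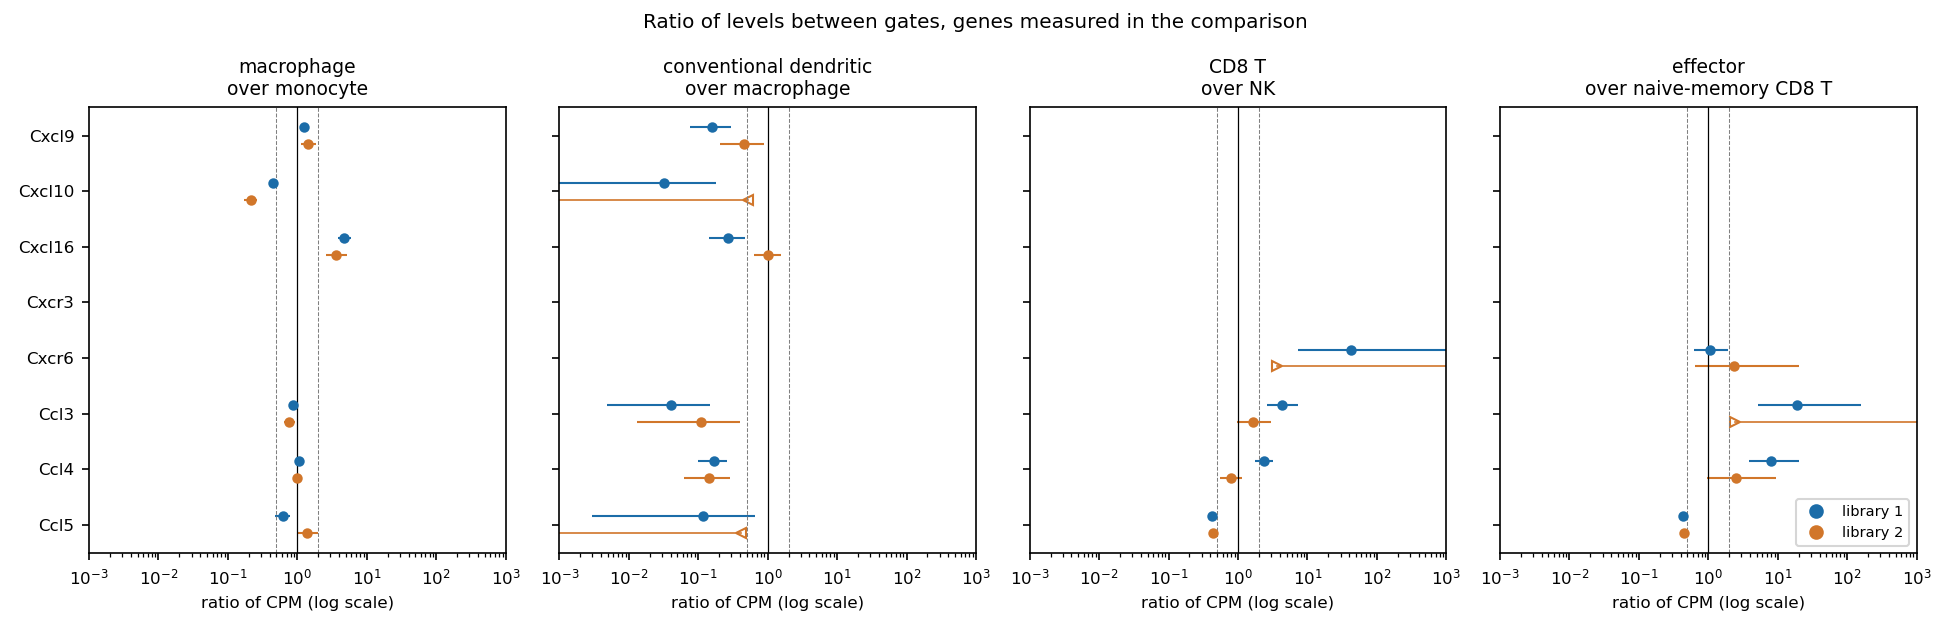
Ratio of CPM between gates (log axis) for genes measured in each of the 4 comparisons, library 1 in blue and library 2 in orange, with 95% exact binomial intervals; solid line 1, dashed lines 0.5 and 2, open triangles the interval's end where a gate had 0 UMIs, and intervals reaching past the axis are cut at its edge. Cxcl16 lay right of 2 and Cxcl10 left of 0.5 for macrophage over monocyte in both libraries.

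Among lymphocytes, CD8 T cells carried Cxcr6 and NK cells more Ccl5. These were the 2 members called of the 4 measured in CD8 T over NK, where 11.4% of 3033 genes were called. Cxcr6 had 127 UMIs in CD8 T cells and 1 in NK cells of library 1, a ratio of 42 (7.4 to 1669.9). In library 2 it had 84 and 0 UMIs, 4.57-fold higher in CD8 T cells with the 0 set to 3 UMIs. Ccl5 had CD8 T over NK ratios of 0.427 (0.409 to 0.446) and 0.443 (0.407 to 0.484). NK barcodes were shallow (median 876 and 711 UMIs), and with at least 1000 UMIs per barcode its log2 ratios were -0.84 and -0.57, short of the limit. Ccl3 and Ccl4 were higher in CD8 T cells of library 1, with ratios of 4.24 (2.62 to 7.28) and 2.33 (1.74 to 3.19), but not by 2 times in library 2, with 1.63 (0.959 to 2.99) and 0.78 (0.542 to 1.15). In the NK gate of library 2, 1 barcode held 30 of 36 Ccl4 UMIs and 1 held 12 of 15 Ccl3 UMIs, and leaving out the highest barcode of each gene and gate made the number called 4. The median log2 ratio was 0.89 for the members, or 0.91 with genes at 0 set to 3 UMIs, and 0.12 for all genes. Among 7 other chemokine genes measured, Ccl1 and Ccr7 were higher in CD8 T cells, and Cxcl2 and Ccl6 were among those higher in NK cells. Macrophage markers in the NK gate summed to 757 CPM in library 1 and 1742 CPM in library 2. In library 2, 3 NK barcodes with 3 or more of these markers held 12 of 15 Ccl3 UMIs and 4 of 36 Ccl4 UMIs, and with such barcodes left out 3 members were called in place of 2.

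Within CD8 T cells the ligands separated the subsets. Effector cells had more Ccl3 and Ccl4, and naive-memory cells more Ccl5, which made 3 members called of 4 measured, against 11.9% of 2360 genes. Ccl3 had 227 UMIs (332 CPM) in effector and 2 UMIs (17.6 CPM) in naive-memory cells of library 1, a ratio of 18.9 (5.16 to 157). In library 2 it had 149 and 0 UMIs, 3.06-fold higher in effector cells with the 0 set to 3 UMIs. Ccl4 ratios were 8.1 (3.89 to 20.3) in library 1 and 2.54 (0.974 to 9.43) in library 2, where the naive-memory side was 4 UMIs in 21 barcodes. Ccl5 had 4121 CPM in effector and 9601 CPM in naive-memory cells of library 1, a ratio of 0.429 (0.4 to 0.461), and 4298 and 9552 CPM in library 2, a ratio of 0.45 (0.388 to 0.524). Yet a Ccl5 UMI was found in more effector barcodes, 91.8% and 91.9%, than naive-memory barcodes, 67.8% and 81%, at median depths of 2794 and 1900 against 1095 and 985 UMIs. With each barcode thinned to 500 UMIs the Ccl5 log2 ratios were -0.57 and -0.84 and that of Ccl4 in library 2 was -0.01, and 1 member in place of 3 was past 2 times in both libraries. The Ccl5 log2 ratios also fell short with at least 1000 UMIs per barcode (-0.95 and -0.81), with 1 more marker required (-0.95 and -0.97) and with the mean over barcodes (-0.64 and -0.77). Cxcr6 had ratios of 1.05 (0.616 to 1.91) and 2.37 (0.634 to 19.9), and was not called. The median log2 ratio was 1.27 for the members, or 1.42 with genes at 0 set to 3 UMIs, and 0.15 for all genes. Of 4 other chemokine genes measured, Ccl1, Xcl1 and Ccrl2 were higher in effector cells and Ccr7, a marker used for the subset, in naive-memory cells.

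The libraries were then set against each other within a gate, with the same 2 times limit and at least 20 UMIs over both. In macrophages 3 of the 6 members measured were higher in library 1 and none in library 2, against 2.66% of 8690 genes higher and 5.67% called in either direction. Cxcl10 had 314 CPM in library 1 and 92.8 CPM in library 2, a ratio of 3.39 (2.85 to 4.03). The Cxcl9 ratio was 2.47 (2.22 to 2.75) and the Ccl3 ratio 2.08 (1.86 to 2.33). Cxcl16 and Ccl4 stood under the limit at 1.72 (1.54 to 1.91) and 1.6 (1.49 to 1.71), and Ccl5 was lower in library 1 at 0.744 (0.604 to 0.915). The median log2 ratio of the members was 0.92, against -0.03 over all genes and 0.01 over 18 other chemokine genes. Thinned to 500 UMIs per barcode, only Cxcl10 stayed past the limit, with log2 ratios of 0.92 for Cxcl9 and 0.81 for Ccl3. The Ccl3 log2 ratio was also just short of the limit with clusters (0.93), with the mean over barcodes (0.89) and with barcodes of 2 lineages kept (0.99). Macrophage barcodes were deeper in library 1 (median 3408 against 2436.5 UMIs), and melanocyte markers in them were lower (273 against 784 CPM). With 1 library on each side, genotype, tumour pool and library cannot be told apart.

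In monocytes Cxcl9 was the only one of 6 members called, at 517 CPM in library 1 and 179.6 CPM in library 2, a ratio of 2.88 (2.28 to 3.68), where 8.91% of 5636 genes were called. Cxcl10 had 1.62 (1.38 to 1.91) and Ccl3 1.83 (1.52 to 2.21). The median log2 ratio was 0.71 for the members and 0.03 for all genes. In CD8 T cells 0 of 5 members measured were called, against 9.24% of 5800 genes, and Cxcr6 had a ratio of 0.736 (0.554 to 0.982) and Cxcr3 1.9 (0.931 to 4.27). In NK cells 3 of 4 were called, Cxcl10 higher in library 1 and Ccl3 and Ccl4 higher in library 2, against 18.4% of 2482 genes. The NK Cxcl10 ratio was 3.49 (0.883 to 30.2). Without the highest barcode of each gene and gate the Ccl4 log2 ratio was 0.83 in place of -1.55, and without NK barcodes that carried 3 or more macrophage markers that of Ccl3 was 0.39 in place of -1.79. The NK median was -0.64 for the members and 0.09 for all genes, and in CD8 T cells 0.02 and 0.07.

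The smaller or outer gates varied. Neutrophils had 3 of 4 members called, against 36.5% of 994 genes. Ccl3 had a library 1 over library 2 ratio of 5.77 (4.43 to 7.63) there and Ccl4 4.01 (3.05 to 5.33), and Cxcl9 was higher in library 2 on the few UMIs described. Unresolved myeloid barcodes had 2 of 6 called, against 9.56% of genes, Cxcl9 at 2.64 (2.04 to 3.44) and Ccl3 at 2.14 (1.74 to 2.64). In the melanoma gate 0 of 8 members were called, against 4.56% of genes, with Cxcl10 at 1.48 (1.39 to 1.58) and Cxcr3 at 0.901 (0.769 to 1.05).

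**Figure D4:**
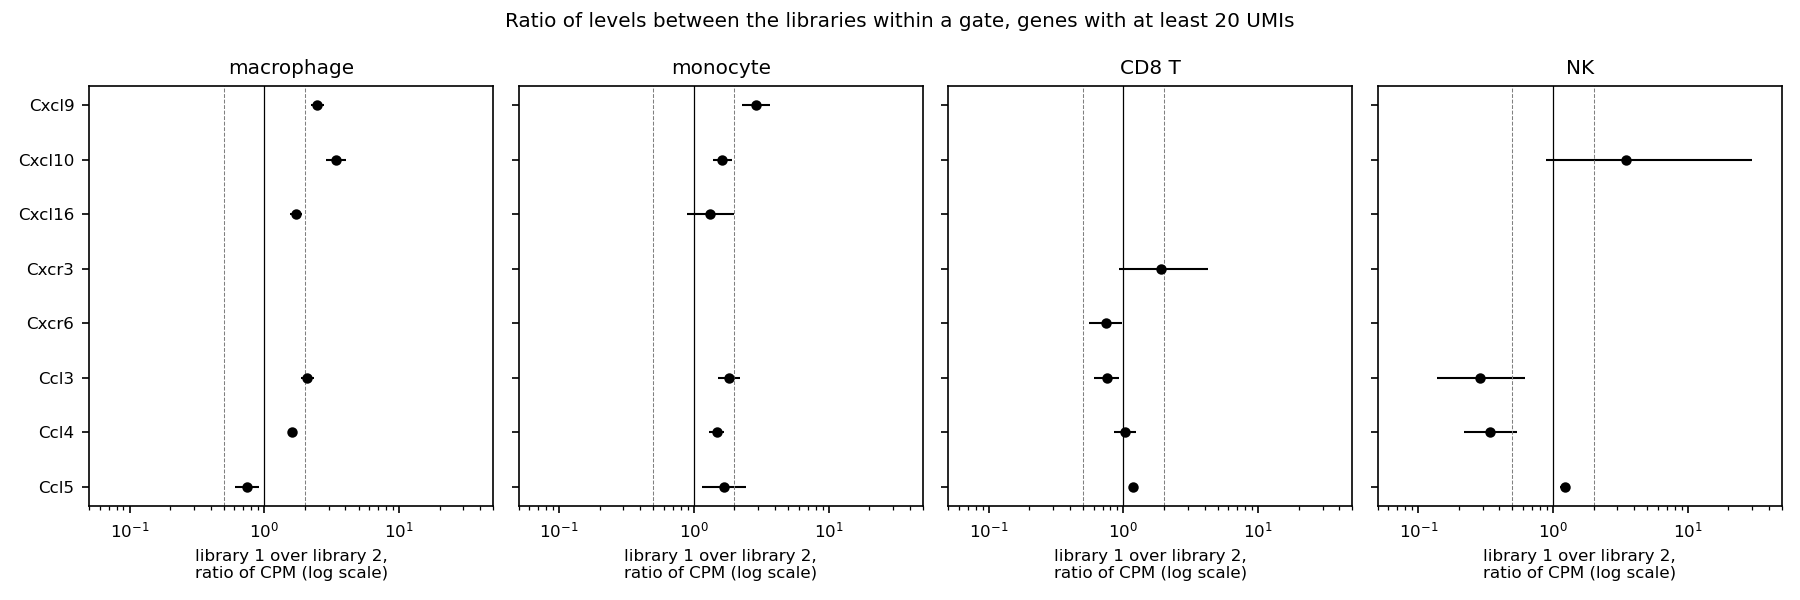
Ratio of CPM in library 1 over library 2 (log axis) for members with at least 20 UMIs in 4 gates, with 95% exact binomial intervals; solid line 1, dashed lines 0.5 and 2. In macrophages Cxcl9, Cxcl10 and Ccl3 lay beyond 2, in monocytes Cxcl9 alone, and in CD8 T cells no member.

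The gap in Cxcl9 between the libraries was not even across macrophages. Macrophages were divided at the median over both libraries of their share of UMIs from H2-Aa, H2-Ab1, H2-Eb1 and Cd74, genes of MHC class II and its chaperone, a split chosen after the gates were seen. Those above the median numbered 294 in library 1 and 282 in library 2, and those at or under it 184 and 392. Cxcl9 had 1015 CPM (956 to 1076) above and 105 CPM (83.4 to 129.8) at or under the median in library 1, and 459 CPM (411 to 511) and 129 CPM (109 to 152) in library 2. The ratio of above to at or under was 9.69 times (95% interval 7.75 to 12.3) in library 1 and 3.56 times (95% interval 2.92 to 4.35) in library 2. Library 1 over library 2 was 2.21 times (95% interval 1.95 to 2.5) above the median and 0.812 times (95% interval 0.612 to 1.07) at or under it. Cxcl10 behaved otherwise: its library ratio was 2.89 times (95% interval 2.28 to 3.71) above and 3.65 times (95% interval 2.84 to 4.72) at or under the median. Its MHC class II ratio was 1.17 times (95% interval 0.993 to 1.39) in library 1 and 1.48 times (95% interval 1.09 to 2.02) in library 2. Ccl3 had 0.891 times (95% interval 0.783 to 1.01) and 0.893 times (95% interval 0.732 to 1.09), with both intervals holding 1. Ccl4 was slightly lower above the median, at 0.868 times (95% interval 0.797 to 0.945) and 0.872 times (95% interval 0.778 to 0.976). Ccl5 was higher above the median, at 2.02 times (95% interval 1.42 to 2.93) in library 1 and 2.02 times (95% interval 1.53 to 2.67) in library 2, and Cxcl16 at 1.27 times (95% interval 1.11 to 1.45) and 1.39 times (95% interval 1.17 to 1.66).

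Monocytes were divided by whether they had more UMIs of the inflammatory genes Il1b and Thbs1 or of the classical genes Plac8 and Hp, a split also chosen after the gates were seen. Those with more Il1b and Thbs1 had 691 CPM of Ccl3 and those with more Plac8 and Hp 295 CPM in library 1, a ratio of 2.34 times (95% interval 1.8 to 3.09), and 408 and 75.4 CPM in library 2, a ratio of 5.41 times (95% interval 2.56 to 13.7). For Ccl4 the ratio was 5.53 times (95% interval 4.24 to 7.35) in library 1 and 1.67 times (95% interval 1.22 to 2.33) in library 2. Ccl5 had 6.95 times (95% interval 3.09 to 19.3) in library 1 and 3.2 times (95% interval 1.01 to 16.2) in library 2, and Cxcl16 3.2 times (95% interval 1.6 to 7.26) and 2.2 times (95% interval 0.782 to 8.54). Cxcl10 had 1.23 times (95% interval 1.02 to 1.5) and 2.08 times (95% interval 1.28 to 3.55). The Cxcl9 intervals both held 1, with 0.875 times (95% interval 0.706 to 1.09) in library 1 and 0.631 times (95% interval 0.362 to 1.14) in library 2. Ccl4 of the Plac8 and Hp group was lower in library 1 than in library 2, at 0.523 times (95% interval 0.349 to 0.788), from 58 and 46 UMIs.

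**Figure D5:**
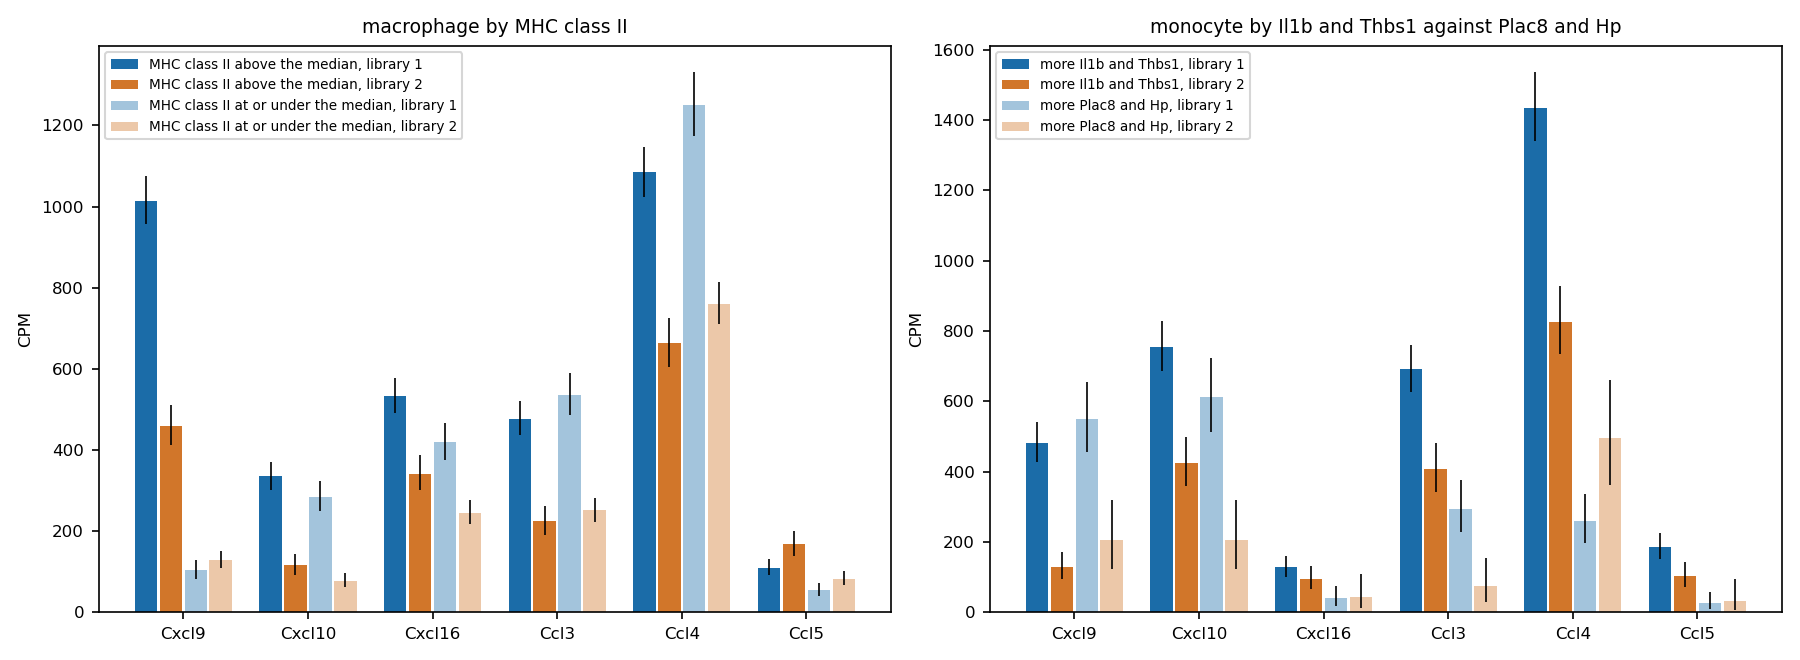
Level (CPM) of the 6 ligands in macrophages split at the median MHC class II share (left) and in monocytes split by Il1b and Thbs1 against Plac8 and Hp (right), for library 1 (blue) and library 2 (orange), with 95% Poisson intervals. Cxcl9 was concentrated in macrophages above the median, at 1015 CPM in library 1 and 459 CPM in library 2. Ccl3 and Ccl4 were higher in monocytes with more Il1b and Thbs1, Ccl4 by only 1.67 times in library 2.

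Genes upstream of these ligands were read from a list that included Ifng and Irf1. Ifng, an inducer of Cxcl9 and Cxcl10, had 124 CPM (106 UMIs) in CD8 T cells of library 1 and 458 CPM (190 UMIs) in library 2. In NK cells it had 24.9 and 14.8 CPM. CD8 T cells made up 5.98% of kept barcodes in library 1 and 2.55% in library 2. How Ifng relates to the library gap in macrophage Cxcl9 and Cxcl10 was not tested. Irf1, a transcription factor of the interferon gamma response, had 132 and 50.4 CPM in macrophages and 306 and 182 CPM in monocytes. Dpp4, a protease that can inactivate Cxcl10, had only 2 and 2 UMIs in macrophages and 19 and 7 in CD8 T cells.

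Across the 8 gates with at least 50 barcodes in each library, taken as 16 points of log2(CPM + 10), the genes outside the set most like each member were listed among 9317 genes. The points share libraries, depth and free RNA, so these are descriptions. Ly86 (r = 0.98), Rasgef1b and Pld4 were nearest to Cxcl9, Sgk3 (0.95), Tgfbi and F10 to Cxcl10, and Lgmn (0.95), Sgk1 and Lpl to Cxcl16. Prkcq (0.96), Fam102a and Aes were nearest to Cxcr3. Outside the set, Arpc5 led for both Ccl3 (0.93, then AA467197 and Ccrl2) and Ccl4 (0.95, then Plek and Nfkbia), and Ms4a4b (0.98), Il2rb and Ptprcap led for Ccl5. Between members, Ccl3 and Ccl4 had r = 0.96, above Arpc5 for each, Cxcl9 and Cxcl16 0.89, and Cxcl9 and Cxcl10 0.86. Cxcr6 had too few UMIs for this list.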

How the data were processed

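Single cells of sorted tumour CD45+ cells were measured in 2 samples with no replicate. The deposited matrix holds UMI counts per gene and barcode, made by the authors with Cell Ranger on mm10, per the submitters' processing notes, and written by software 3.0.2, per the file headers. Barcodes had at least 500 UMIs, 200 genes and at most 10% mitochondrial UMIs. Barcodes whose sequence had over 10 times more UMIs in the other library were left out. Classes came from marker gates, and barcodes with markers of 2 lineages were set aside as the treatment of doublets, with no doublet caller. The members and lists were chosen with earlier results of these data known.

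Levels are summed counts per 1000000 (CPM) with exact Poisson intervals. Ratios have exact conditional binomial intervals at 95%, and medians of log2 ratios use 0.5 UMIs added. No p-value was computed, since barcodes are not replicates, and all intervals cover counting error only. A share was also computed after thinning to 1000 UMIs. A gene was called at 2 times, with at least 20 UMIs, in both libraries for gates compared within a library. A count of 0 was set to 3 UMIs for folds against it, and such folds leave out the counting error of the other gate. The members were always named, with other chemokine genes past 2 times (at most 10 per comparison) and the 3 genes nearest each member by Pearson r among genes with at least 200 UMIs per library. Of the 45 other chemokine genes listed, 42 had a unique row. Alternatives were stricter filters, another marker number, Leiden clusters, thinning and others. The ratio rule was tested on simulated independent Poisson counts with known changes. That check does not cover UMIs clumped in single barcodes. Tools were Python 3.11.15, numpy 2.4.6, scipy 1.17.1, pandas 2.3.3, scanpy 1.11.5, leidenalg 0.10.2, igraph 0.11.9 and matplotlib 3.10.9. Some listed items are not reported here.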

Additional observations from a re-analysis of the deposited data

Results flagged for a closer look

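Among the macrophage, monocyte, CD8 T and NK gates, the log2 ratio of library 1 over library 2 had intervals on opposite sides of 0 for 3 ligands, and the difference between gates was not tested, since each gate has 1 library on each side. Ccl3 had 1.06 in macrophages and 0.87 in monocytes, but -0.42 in CD8 T cells and -1.79 in NK cells. That NK value turned to 0.39 without NK barcodes of 3 or more macrophage markers, which held 12 of the 15 library 2 UMIs. Ccl4 had 0.67 in macrophages and 0.56 in monocytes, but -1.55 in NK cells. Its opposite direction rests on NK cells alone, where 1 library 2 barcode held 30 of 36 UMIs, and it turned to 0.83 without the highest barcode, 0.091 with 1 more marker, 1.58 with clusters and 2.81 with melanoma RNA under 0.1%. Ccl5 had 0.74 in monocytes, 0.23 in CD8 T cells and 0.29 in NK cells, but -0.43 in macrophages. Outside these 4 gates, Cxcl9 had -4.78 in neutrophils against 1.31 in macrophages, and Cxcl16 had -1.13 in conventional dendritic cells against 0.78 in macrophages.

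Some UMIs of the members lay in barcodes that no comparison used. Barcodes with markers of 2 lineages held 10.6% of Cxcl9 UMIs in library 1 and 10.4% in library 2, 12% of Cxcl10 UMIs in library 1, 10.6% of Ccl4 UMIs in library 2, and 19.2% and 12% of Cxcr6 UMIs in libraries 1 and 2. Barcodes that passed no gate held 11.7% and 11.5% of Ccl3 UMIs and 15.4% and 18.7% of Ccl5 UMIs in libraries 1 and 2.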

How the results depend on the processing

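Of the log2 ratios recomputed under the alternatives, 596 stayed inside the counting interval of the reported value, which is wide for low counts, 98 moved outside it and 9 reversed. Some inside it still fell short of 2 times, such as Ccl4 in effector over naive-memory of library 2 (1.35, against 0.47 with the mean over barcodes). Counts of called members in macrophage over monocyte, CD8 T over NK, effector over naive-memory CD8 T, and library 1 over library 2 in macrophages, monocytes, CD8 T cells and NK cells were 2, 2, 3, 3, 1, 0 and 3. At 1000 UMIs per barcode CD8 T over NK gave 1 and the CD8 T libraries 1, and effector over naive-memory 2. One more marker gave 2 for the monocyte libraries, 1 for CD8 T and 2 for effector over naive-memory. Conventional dendritic over macrophage gave 4 in place of 5 with 2 lineages kept and with melanoma RNA under 0.1%. When thinned to 500 UMIs, Cxcl9 in library 2 (-0.23) and Ccl5 in library 1 (-0.39) both fell short of the limit there. Leiden clusters gave 4 for CD8 T over NK, and 4, 2 and 1 for the monocyte, CD8 T and NK libraries, with no dendritic cluster to compare. Keeping barcodes of 2 lineages gave 2 for the monocyte libraries. The mean over barcodes gave 1 each for CD8 T over NK, effector over naive-memory and the CD8 T libraries. Thinning to 500 UMIs gave 1 for each of these 3, 1 for the macrophage and NK libraries and 2 for monocytes. At 50 UMIs per gene the NK libraries gave 1. Chosen after seeing the data, leaving out the highest barcode gave 4 for CD8 T over NK and 1 for the NK libraries, melanoma RNA under 0.1% gave 4 and, for the CD8 T libraries, 1, and a gap of 1 marker gave 1 for macrophage over monocyte and 2 for the monocyte libraries. Reversed log2 ratios of libraries in NK cells were, for Ccl4, 0.091 with 1 more marker, 1.58 with clusters, 0.83 without the highest barcode and 2.81 with melanoma RNA under 0.1%, and for Ccl3 0.39 without barcodes of 3 or more macrophage markers. The others were Cxcl10 in macrophage over monocyte (0.23, library 2, clusters), Cxcr6 (-0.033, clusters) and Ccl4 (-0.0098, thinned) in effector over naive-memory of library 2, and Ccl5 in dendritic over macrophage (1.86, library 1, 2 lineages kept). The cause was not tested. No paired analysis was possible because each genotype has 1 library and no comparison has a test. Depth limits most the receptors and the dendritic, regulatory T and naive-memory gates.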
